A study of Mus musculus with 61 samples.

Results

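The antibody experiment asked what blocking interferon-gamma (IFNγ) did to the transcriptome of exercised muscle in mice depleted of regulatory T cells (Tregs). It comprised 6 of the 61 libraries of the series, chosen by their labels: quadriceps of trained Foxp3DTR+ mice given an antibody that neutralises IFNγ (3 libraries) or control IgG (3 libraries). All 6 mice carried the human diphtheria toxin receptor and GFP in the Foxp3 gene, received diphtheria toxin (DT), which kills the cells that express the receptor, and were trained for 2 weeks. The antibody or IgG was injected every other day for 1 week of the training. The labels give no strain, sex or age for these mice, and no trained mouse with intact Tregs received either antibody. A separate training experiment of 12 libraries, with no antibody, supplied reference values from the same muscle: sedentary and trained, Foxp3DTR+ and Foxp3DTR- genotypes, all given DT, 3 libraries each. Another experiment gave the same antibodies to resting C57BL/6JN mice of 24 months, with 2 libraries per group and the muscle not named.

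IFNγ is a cytokine made mainly by T cells and natural killer cells. It binds a receptor on nearly every cell type, and signalling through its JAK kinases switches on genes such as Irf1, whose products switch on further targets. Those targets include the guanylate-binding proteins and immunity-related GTPases, which attack intracellular pathogens, the machinery that presents peptides on major histocompatibility complex (MHC) molecules, chemokines that recruit T cells, and inhibitory molecules that restrain them.

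The 6 libraries held 4562680 to 6388765 counts each, and 3 counts, used here as the limit of detection, correspond to 0.470 to 0.658 CPM, counts per 1000000 counts of a library. Each was made from 2 ng of whole-muscle RNA, so a fall in a transcript because fewer cells of a type were present and a fall in RNA per cell cannot be told apart. Foxp3, the gene that defines Tregs, had 1 count in 1 anti-IFNγ library and 0 in the other 5, but it also had 0 counts in all 3 trained Foxp3DTR- libraries, so whole-muscle counts do not check the depletion. Ifng itself had 0 counts in all 6 libraries, so its level was below detection in both groups. On the first principal component of the log2 CPM values, which held 33.7% of the variance, the anti-IFNγ libraries lay at 17 to 24 and IgG replicates 1 and 2 at -26.8 and -28.3, while IgG replicate 3 lay between them at -6.15. Nothing in the labels beyond the replicate numbers says that libraries of one group came from separate mice, and p-values measure the spread between these libraries.

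Anti-IFNγ lowered a compact set of interferon-induced genes by large factors and raised other genes by smaller ones. Of 11742 genes tested with edgeR, 158 passed an adjusted p of 0.05 (1.35% of those tested), of which 84 were lower (0.715%) and 74 were higher (0.630%) under anti-IFNγ. Such genes are referred to as called. The falls had a median log2 fold change of -1.43, ranged from -4.34 to -0.49, and passed a log2 change of 2 in 30 genes. The rises had a median of 1.15, ranged from 0.46 to 2.53, and passed a log2 change of 2 in 1 gene. Of the 84 falls, 51 belonged to 8 lists of interferon-related genes with 99 tested members, and none of the 74 rises did. The lists were chosen with earlier results of these data known, so this split is a description and not a test. All 158 called genes had CPM values that did not overlap between the groups, against 15.2% of all tested genes (7.11% with anti-IFNγ lower and 8.13% with anti-IFNγ higher). The balance of falls and rises depended on the libraries: 54 falls and 24 rises were called without anti-IFNγ replicate 1, 56 and 17 without IgG replicate 2, 108 and 274 without IgG replicate 3, and 41 and 16 with the training libraries in the fit.

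**Figure D1:**
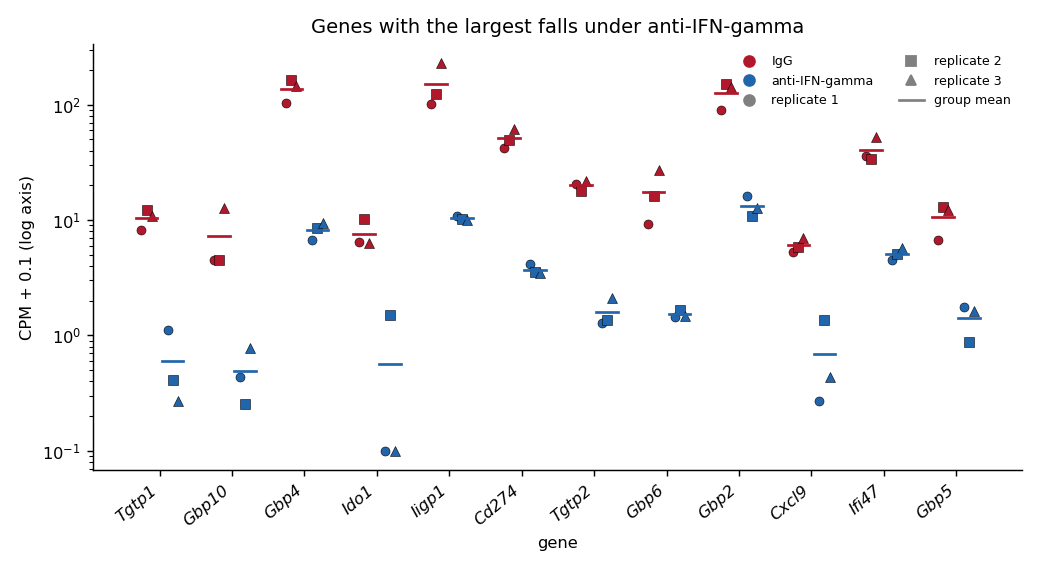
The 12 called genes with the largest falls among those with an established symbol and at least 5 CPM in a group. The vertical axis is CPM plus 0.1 on a log axis, red points are IgG and blue points anti-IFNγ libraries, the point's shape gives the replicate, and horizontal bars are group means. In every gene the 3 blue points lie below the 3 red points, and Iigp1 runs from 102 to 228 CPM under IgG and from 9.82 to 10.8 CPM under anti-IFNγ.

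Promoters of the 6 falling interferon-list genes with the smallest p among those with a promoter window used here are shown because the falls concerned genes known to be switched on by interferon. Each window spans 250 bases before to 50 bases after the start of the gene (RefSeq, build GRCm38.p6, which is mm10) and is written 5′ to 3′ on the gene's own strand. Capitals mark matches to the gamma-activated site (GAS), searched as TTCNNNGAA, which reads the same on both strands, and to the core of the interferon-stimulated response element (ISRE), searched on both strands as GAAA, any 2 bases and GAAA again. Gbp2 (chr3:142620413-142620712, plus strand) and Gbp3 (chr3:142559794-142560093, plus strand) encode guanylate-binding proteins, Tgtp2 (chr11:49064163-49064462, minus strand) an immunity-related GTPase, and Cd274 (chr19:29367188-29367487, plus strand) the inhibitory ligand PD-L1. Ifi47 (chr11:49076337-49076636, plus strand) encodes another immunity-related GTPase, and Tap1 (chr17:34187306-34187605, plus strand) a subunit of the peptide transporter of MHC class I presentation.
Gbp2: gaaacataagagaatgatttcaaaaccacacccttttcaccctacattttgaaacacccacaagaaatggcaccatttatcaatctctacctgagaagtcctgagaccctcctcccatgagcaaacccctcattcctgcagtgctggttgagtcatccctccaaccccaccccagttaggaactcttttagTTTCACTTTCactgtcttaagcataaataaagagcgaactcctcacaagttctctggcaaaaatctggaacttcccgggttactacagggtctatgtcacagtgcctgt
Gbp3: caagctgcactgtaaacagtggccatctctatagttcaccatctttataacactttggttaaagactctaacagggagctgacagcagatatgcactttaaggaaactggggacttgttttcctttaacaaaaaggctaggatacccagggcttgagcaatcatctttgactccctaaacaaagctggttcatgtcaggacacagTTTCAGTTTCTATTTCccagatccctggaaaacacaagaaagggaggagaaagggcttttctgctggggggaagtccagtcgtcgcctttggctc
Tgtp2: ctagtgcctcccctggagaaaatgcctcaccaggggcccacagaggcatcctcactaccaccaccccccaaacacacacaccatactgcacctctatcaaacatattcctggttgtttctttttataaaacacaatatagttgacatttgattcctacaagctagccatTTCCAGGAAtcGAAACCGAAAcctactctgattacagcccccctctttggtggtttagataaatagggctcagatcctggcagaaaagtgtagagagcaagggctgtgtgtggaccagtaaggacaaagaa
Cd274: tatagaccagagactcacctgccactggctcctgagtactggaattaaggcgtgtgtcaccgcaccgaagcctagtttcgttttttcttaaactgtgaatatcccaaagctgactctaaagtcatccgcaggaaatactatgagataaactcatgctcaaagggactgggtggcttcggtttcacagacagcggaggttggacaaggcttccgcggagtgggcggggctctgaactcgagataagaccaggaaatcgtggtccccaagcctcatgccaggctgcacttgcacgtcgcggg
Ifi47: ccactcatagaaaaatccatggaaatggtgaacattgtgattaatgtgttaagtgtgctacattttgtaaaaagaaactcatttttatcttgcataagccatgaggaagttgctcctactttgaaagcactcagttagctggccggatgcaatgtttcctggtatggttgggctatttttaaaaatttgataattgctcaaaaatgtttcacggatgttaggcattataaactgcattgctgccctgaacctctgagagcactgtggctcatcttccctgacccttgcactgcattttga
Tap1: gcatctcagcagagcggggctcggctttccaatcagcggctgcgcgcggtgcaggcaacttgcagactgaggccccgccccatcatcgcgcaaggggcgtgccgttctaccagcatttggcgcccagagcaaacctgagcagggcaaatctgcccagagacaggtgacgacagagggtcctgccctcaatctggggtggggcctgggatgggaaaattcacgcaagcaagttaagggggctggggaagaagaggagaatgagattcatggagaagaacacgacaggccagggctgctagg
The Gbp2 window holds 1 ISRE match 59 bases before the start. Gbp3 holds 2 that overlap, at 45 and 39 bases before it. Tgtp2 holds a GAS match at 81 bases and an ISRE match at 70 bases, next to each other without overlap. The windows of Cd274, Ifi47 and Tap1, which fell 14.0-fold, 8.13-fold and 6.42-fold, hold neither motif, which says only that these letters are not in these windows.

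Across the called genes, an ISRE match was found in 45.7% and a GAS match in 31.4% of the 35 falling interferon-list genes that had a promoter window, of 51 in all. Among the 61 rising genes with a window, the shares were 4.92% and 8.2%. Among all 9085 tested genes with a window they were 3.7% and 8.19%. The 24 falling genes outside the interferon lists that had a window lay between, with 16.7% and 12.5%. These shares describe sequence matches, not binding, and some of the genes are neighbours that arose by duplication.

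Transcription factors downstream of the IFNγ receptor fell, while no change in the receptor genes passed the test. Ifngr1 and Ifngr2, which encode the receptor chains, had log2 fold changes of -0.13 ± 0.12 (SE) and 0.09 ± 0.13, and Jak1 and Jak2, the receptor's kinases, of -0.06 ± 0.12 and -0.12 ± 0.18, none past the test. Irf1, an early target of IFNγ, stood at 38.2, 50.8 and 86.0 CPM under IgG and 12.6, 16.6 and 9.32 CPM under anti-IFNγ (log2 fold change -2.18 ± 0.27, edgeR adjusted p = 0.000361). Nlrc5, the transactivator of MHC class I genes, went from 12.4, 19.7 and 25.8 CPM to 3.70, 2.03 and 3.05 CPM (log2 fold change -2.72 ± 0.32, edgeR adjusted p = 0.000225). Every anti-IFNγ value was below every IgG value for both factors, and IgG replicate 3 had the highest value of its group. In the list of ligand, receptor and signalling genes, 3 of 11 tested members were called, with a list median of -0.34. Ciita, the transactivator of MHC class II, was at 8.15, 12.7 and 5.98 CPM under IgG and 4.54, 5.95 and 5.42 CPM under anti-IFNγ (log2 fold change -0.74 ± 0.31, edgeR adjusted p = 0.407). Irf8, a factor of myeloid cells, had 35.1 CPM in IgG replicate 3 and 7.62 to 11.6 CPM in the other 5 libraries.

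Guanylate-binding proteins fell as a family: all 8 tested members were called, with a median log2 fold change of -3.13 and a range of -4.15 to -2.25. These large GTPases coat pathogen-containing vacuoles. Gbp4 (chr5:105115767-105139586) had 104, 162 and 144 CPM under IgG and 6.55, 8.45 and 9.32 CPM under anti-IFNγ. The groups were far apart, the fall was 16.8-fold (log2 fold change -4.07 ± 0.18), and its edgeR adjusted p of 1.89e-08 held below 0.05 without any one library (highest 1.10e-05). Gbp2 (chr3:142620602-142638008) had 89.1, 152 and 141 CPM against 16.0, 10.8 and 12.7 CPM, a 9.68-fold fall (log2 fold change -3.28 ± 0.20, edgeR adjusted p = 3.94e-07). Gbp3 went from 57.1, 95.8 and 89.7 CPM to 9.91, 16.0 and 10.8 CPM (log2 fold change -2.71 ± 0.21, edgeR adjusted p = 3.78e-06). IgG replicate 1 was the lowest of its group for Gbp2, Gbp3 and Gbp4. The other 5, Gbp5, Gbp6, Gbp7, Gbp9 and Gbp10, had log2 fold changes of -2.97, -3.58, -2.25, -2.26 and -4.15, and Gbp5 had an adjusted p of 0.0563 with the training libraries in the fit. Gbp10 had 2, 1 and 4 counts in the anti-IFNγ libraries, so the size of its fall is poorly fixed. Members of this family are near-copies in clusters on chromosomes 3 and 5, so how reads were shared among them is uncertain, but the summed level of the list was 403 to 627 CPM under IgG and 61.8 to 77.2 CPM under anti-IFNγ.

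Immunity-related GTPases, the second family of vacuole-attacking GTPases, were called in 11 of 12 tested members, with a median log2 fold change of -2.94. Iigp1 stood at 102, 123 and 228 CPM under IgG and at 10.8, 10.2 and 9.82 CPM under anti-IFNγ, a 14.7-fold fall (log2 fold change -3.88 ± 0.26, edgeR adjusted p = 1.02e-06). The IgG values differed more than 2-fold among themselves, whereas the anti-IFNγ values were within 1 CPM of each other. Ifi47 (chr11:49076587-49096974) went from 35.8, 34.0 and 52.3 CPM to 4.37, 5.01 and 5.59 CPM (log2 fold change -3.02 ± 0.22, edgeR adjusted p = 2.10e-06). Tgtp2 went from 20.6, 17.8 and 21.6 CPM to 1.18, 1.25 and 2.03 CPM (log2 fold change -3.74 ± 0.28, edgeR adjusted p = 3.62e-06), and its near-copy Tgtp1 had a log2 fold change of -4.32. Tgtp1 had 1.01, 0.313 and 0.169 CPM under anti-IFNγ, near or below the limit of detection, so the size of its fall is poorly fixed. Igtp had 61.2, 83.9 and 182 CPM under IgG and 13.4, 13.0 and 18.6 CPM under anti-IFNγ, and Irgm2, whose annotated span overlaps it, had 73.2, 80.4 and 184 CPM and 19.3, 13.6 and 16.8 CPM. IgG replicate 3 carried the highest level of Iigp1, Ifi47, Igtp and Irgm2, and the summed level of the family was 504, 577 and 1165 CPM in IgG replicates 1 to 3 against 141, 141 and 180 CPM under anti-IFNγ. Gm12250 had a log2 fold change of -4.34 ± 0.68, from 4.26, 5.92 and 14.3 CPM to 0.336, 0.783 and 0 CPM. It was at or below 3 counts in 2 of the 3 anti-IFNγ libraries, so the size of its fall is poorly fixed, with -5.40 to -3.66 when 1 library was left out.

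Most genes of MHC class I presentation fell, the abundant ones by about the same modest factor. Of 16 tested members 10 were called lower and none higher, with a median log2 fold change of -1.11. H2-K1, a classical class I heavy chain, stood at 286, 299 and 305 CPM under IgG and 147, 140 and 123 CPM under anti-IFNγ, a 2.18-fold fall (log2 fold change -1.12 ± 0.10, edgeR adjusted p = 1.55e-05). H2-D1 had 394, 451 and 431 CPM against 220, 197 and 176 CPM (log2 fold change -1.11 ± 0.10), and B2m, the light chain shared by all class I molecules, had 294, 328 and 315 CPM against 165, 158 and 148 CPM (log2 fold change -0.99 ± 0.09). The 3 chains thus changed by nearly the same factor, with narrow spread in both groups. The transporter that carries peptides to them changed more: Tap1 (chr17:34187553-34197225) went from 48.2, 68.8 and 74.3 CPM to 10.4, 10.8 and 8.47 CPM (log2 fold change -2.68 ± 0.18, edgeR adjusted p = 1.15e-06), and Tap2 from 36.5, 47.3 and 53.6 CPM to 16.8, 12.1 and 12.5 CPM (log2 fold change -1.73 ± 0.18). Tapbp, the tapasin gene, had a log2 fold change of -0.87. The non-classical H2-T23 and H2-Q6 had -1.61 and -1.99, with the H2-Q genes uncertain because they are close copies.

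The immunoproteasome, the inducible set of proteasome subunits that cut peptides for class I, was called in 3 of 5 tested members. Psmb9 had 13.9, 29.6 and 32.6 CPM under IgG and 4.54, 5.95 and 6.27 CPM under anti-IFNγ (log2 fold change -2.17 ± 0.29, edgeR adjusted p = 0.000953). Psmb8 had 36.3, 61.6 and 53.8 CPM and 16.1, 17.7 and 17.1 CPM (log2 fold change -1.57 ± 0.18, edgeR adjusted p = 0.000225). In both genes IgG replicate 1 was the lowest IgG library and was still above every anti-IFNγ library. Psmb10 had a log2 fold change of -0.72 ± 0.16, and its edgeR adjusted p of 0.0463 rose to as much as 0.220, without IgG replicate 2. It kept the call in 1 of the 6 fits that left out a library, and its adjusted p was 0.494 with the training libraries in the fit.

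MHC class II, carried by professional antigen-presenting cells, was called in 3 of 6 tested members, with a median log2 fold change of -0.68. H2-Ab1 had 194, 190 and 191 CPM under IgG and 104, 136 and 101 CPM under anti-IFNγ (log2 fold change -0.76 ± 0.12, edgeR adjusted p = 0.00263). Cd74, the invariant chain, had 139, 141 and 139 CPM and 83.7, 110 and 84.5 CPM (log2 fold change -0.59 ± 0.12, edgeR adjusted p = 0.0178). The IgG libraries were nearly equal for both genes, and anti-IFNγ replicate 2 was the highest of its group. H2-Eb1 had a log2 fold change of -0.77 (edgeR adjusted p = 0.0157). The calls of H2-Eb1 and Cd74 were lost in 4 and 3 of the 6 fits that left out a library, with adjusted p values up to 0.0985 and 0.114. With the training libraries in the fit all 3 calls were lost, at adjusted p values of 0.372 for H2-Ab1, 0.256 for H2-Eb1 and 0.334 for Cd74. These falls came with lower levels of macrophage markers: 15 of 17 tested markers were lower, 1 was called (C1qb, a complement subunit made by macrophages), and their summed level was 422 to 470 CPM under IgG and 251 to 391 CPM under anti-IFNγ. C1qb kept its call in 2 of the 6 fits that left out a library and lost it with the training libraries in the fit (adjusted p 0.239). The separation of the sums had p = 0.1 by an exact two-sided permutation test, the smallest that 3 against 3 libraries allow. The part of the macrophage markers in the class II result was not tested.

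Genes usually listed as type I interferon targets were all lower: 28 of 28 tested members had negative log2 fold changes, with a median of -0.84, and 10 were called. Many of them respond to both kinds of interferon. Irf7, a factor that amplifies type I interferon production, had 30.2, 34.2 and 40.7 CPM under IgG and 12.1, 13.1 and 13.0 CPM under anti-IFNγ (log2 fold change -1.45 ± 0.17, edgeR adjusted p = 0.000225). Stat2 had 25, 27.2 and 32.6 CPM and 11.1, 11.1 and 9.65 CPM (log2 fold change -1.41 ± 0.18, edgeR adjusted p = 0.000467). Ifit2, an inhibitor of translation of viral RNA, had 18, 21.5 and 24.5 CPM and 4.87, 8.14 and 6.27 CPM (log2 fold change -1.72 ± 0.23, edgeR adjusted p = 0.000824). For these 3 genes the groups did not overlap and IgG replicate 3 was the highest library. Rsad2, Ifit3, Bst2, Cmpk2 and Zbp1 were called with log2 fold changes of -1.29, -1.30, -1.05, -1.10 and -1.90. The calls of Cmpk2 and Zbp1 were lost in 4 of the 6 fits that left out a library, and that of Ifit3 in 2, without IgG replicate 2 and without anti-IFNγ replicate 1 (highest adjusted p 0.0815, 0.209 and 0.0786). With the training libraries in the fit, Irf7 (adjusted p 0.0563), Ifit2 (0.119), Bst2 (0.137), Cmpk2 (0.323) and Zbp1 (0.309) were not called.

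Among chemokines and immune brakes, 3 of 13 tested genes were called, all lower by large factors. Cd274, which encodes PD-L1, had 41.9, 49.5 and 61.9 CPM under IgG and 4.03, 3.44 and 3.39 CPM under anti-IFNγ, with an SD of 0.357 CPM in the latter group (log2 fold change -3.81 ± 0.20, edgeR adjusted p = 1.17e-07). Cxcl9, a chemokine for activated T cells, had 5.19, 5.70 and 6.94 CPM and 0.168, 1.25 and 0.339 CPM (log2 fold change -3.27 ± 0.54, edgeR adjusted p = 0.00502). Ido1, which degrades tryptophan and restrains T cells, had 6.30, 10.1 and 6.17 CPM and 0, 1.41 and 0 CPM (log2 fold change -3.88 ± 0.70, edgeR adjusted p = 0.0104). Both Cxcl9 and Ido1 were at or below 3 counts in 2 of the 3 anti-IFNγ libraries, so the size of their fall is poorly fixed, and the adjusted p of Ido1 was 0.0803 without IgG replicate 2 and 0.349 by DESeq2. The list as a whole had a median of -0.33. T cell markers summed to 10.2 to 18.1 CPM under IgG and 11.1 to 15.4 CPM under anti-IFNγ, and natural killer and cytotoxic markers to 5.04 to 13.7 and 5.08 to 6.42 CPM. Of 15 T cell markers, 3 were tested and 0 were called. None of the 11 natural killer and cytotoxic markers had enough counts to be tested, so none could be called.

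The 33 falls outside the interferon lists included other genes known to respond to interferon. They are named here after their values were seen. Uba7, the activating enzyme of the ubiquitin-like modifier ISG15, had 37.2, 40.8 and 39.4 CPM under IgG and 13.8, 12.2 and 18.5 CPM under anti-IFNγ (log2 fold change -1.40 ± 0.17, edgeR adjusted p = 0.000425). Xdh, the xanthine dehydrogenase of purine breakdown, had 102, 105 and 113 CPM and 41.2, 42.3 and 50.8 CPM (log2 fold change -1.25 ± 0.12, edgeR adjusted p = 2.70e-05). Wars, a tryptophanyl-tRNA synthetase, had 92.8, 131 and 121 CPM and 62.8, 67.3 and 69.6 CPM (log2 fold change -0.78 ± 0.12). Il18bp, a secreted inhibitor of interleukin-18, and Tnfsf10, the death ligand TRAIL, had log2 fold changes of -1.38 and -1.58. Ly6a, a marker of fibro-adipogenic progenitors that interferon also induces, had 136, 158 and 144 CPM and 74.8, 77.2 and 74.2 CPM (log2 fold change -0.95 ± 0.10, edgeR adjusted p = 9.85e-05). It was the only called gene among 13 tested markers of these progenitors, whose median was -0.18. Chromosome 17, which carries the MHC, held 15 of the 84 falls and 4.84% of all tested genes.

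**Figure D2:**
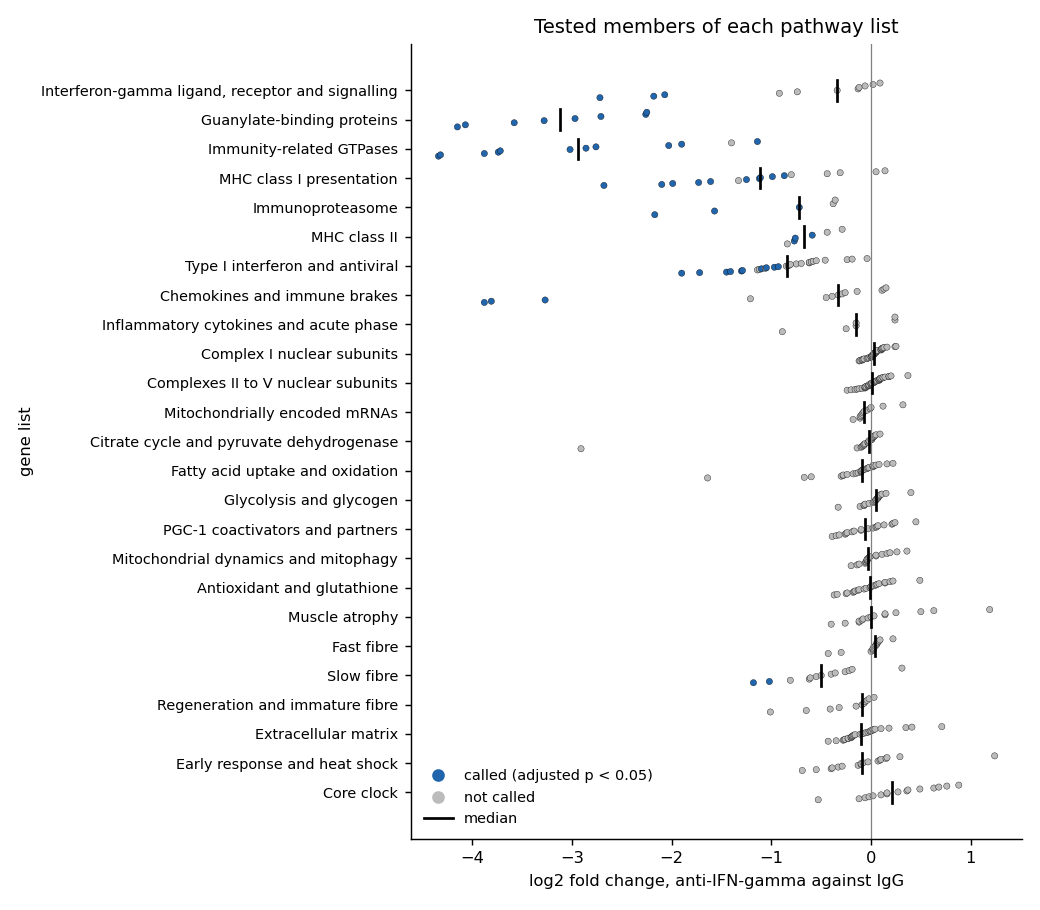
Log2 fold changes of every tested member of the 25 pathway lists. Each point is a gene, placed by its log2 fold change (anti-IFNγ against IgG) on the horizontal axis within its list, blue where called and grey otherwise, and black bars are list medians. The blue points sit in the 8 interferon lists and in the slow fibre list (Myh7 and Tnni1), and the medians of the mitochondrial lists lie within 0.1 of 0.

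Genes of mitochondrial energy metabolism showed no called change under anti-IFNγ. Of 176 genes tested in 7 lists, 0 were called by edgeR and 0 by DESeq2, and 7.39% had an unadjusted p under 0.05, against 10.2% of all tested genes. The median log2 fold change was 0.03 over 37 nuclear subunits of complex I, 0.01 over 41 subunits of complexes II to V, -0.07 over 12 mitochondrially encoded mRNAs, -0.02 over 21 genes of the citrate cycle and -0.09 over 26 genes of fatty acid uptake and oxidation. Individual complex I subunits ranged from -0.12 to 0.25. Ppargc1a, the coactivator of mitochondrial biogenesis, had 51.3, 46.2 and 52.9 CPM under IgG and 49.6, 42.6 and 60.3 CPM under anti-IFNγ (log2 fold change 0.02 ± 0.14, edgeR adjusted p = 0.984). The groups overlapped. The share of counts from mitochondrially encoded genes was 7.10% ± 0.0969 (SD, n = 3) under IgG and 6.69% ± 0.464 (SD, n = 3) under anti-IFNγ, a difference of -0.406 percentage points (p = 0.3, exact two-sided permutation test).

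Pdk4 and Ucp3, genes of fuel choice, varied widely within the IgG group. Pdk4, the kinase that shuts pyruvate dehydrogenase during fasting and fat use, had 1044, 137 and 57.1 CPM in IgG replicates 1 to 3 and 42.5, 41.2 and 83.3 CPM under anti-IFNγ. IgG replicate 1 stood alone, the groups overlapped, and the fitted log2 fold change of -2.91 ± 0.74 (edgeR adjusted p = 0.0839) became -0.79 without that library. Ucp3, the uncoupling protein of muscle mitochondria, moved with it, at 111, 25.9 and 17.7 CPM under IgG and 10.4, 10.8 and 29.0 CPM under anti-IFNγ. Its log2 fold change of -1.64 ± 0.55 became -0.37 without IgG replicate 1. Glycolysis had 0 of 20 members called, with a median of 0.05.

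Slow-fibre genes were lower under anti-IFNγ, although only 2 of 13 tested members were called. Myh7, the slow myosin heavy chain, had 275, 322 and 286 CPM under IgG and 64.7, 148 and 177 CPM under anti-IFNγ (log2 fold change -1.18 ± 0.24, edgeR adjusted p = 0.0262). Tnni1, the slow troponin I, had 100, 90.3 and 97.4 CPM and 31.4, 49.6 and 60.5 CPM (log2 fold change -1.02 ± 0.18, edgeR adjusted p = 0.00774). In both genes the IgG libraries were close together and the anti-IFNγ libraries spread widely, with replicate 1 lowest. Tnnc1, the slow troponin C, was at 91.2, 99.5 and 91.4 CPM and 31.1, 58.5 and 71.1 CPM without passing the test (log2 fold change -0.81 ± 0.21, edgeR adjusted p = 0.0892). Of the 13, 12 had a negative log2 fold change, with a median of -0.50, and the summed level of the list was 4309 to 4356 CPM under IgG and 2812 to 3738 CPM under anti-IFNγ. The call of Myh7 was lost without IgG replicate 2 (adjusted p 0.124), without anti-IFNγ replicate 2 (0.112) and by DESeq2 (0.189), and that of Tnni1 without anti-IFNγ replicate 2 (0.0645). Both calls were also lost with the training libraries in the fit, where Tnni1 had an adjusted p of 0.295. Fast-fibre genes had 0 of 15 called, with a median of 0.04. Myh1, a fast myosin heavy chain, had 9241, 8905 and 9885 CPM and 6918, 8497 and 7413 CPM (log2 fold change -0.30 ± 0.08, edgeR adjusted p = 0.0883). The share of slow fibres in the dissected pieces was not measured, and its part in the result was not tested.

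The remaining pathway lists had no called member: inflammatory cytokines (6 tested, median -0.15), antioxidant genes (23, -0.01), muscle atrophy (15, -0.00), regeneration and immature fibre (11, -0.09), extracellular matrix (30, -0.10), early response and heat shock (18, -0.09), PGC-1 coactivators (20, -0.06) and mitochondrial dynamics (19, -0.03). Core clock genes had 0 of 16 called as well, but 12 of 16 were higher under anti-IFNγ, with a median of 0.21, and 6 did not overlap between the groups. Of all tested genes, 15.2% did not overlap, 8.13% with anti-IFNγ higher, and their median log2 fold change was -0.00. The summed level of the clock genes was 655 to 691 CPM under IgG and 705 to 883 CPM under anti-IFNγ (p = 0.1, exact two-sided permutation test, the smallest possible). Nr1d1, a repressor in the clock, had 149, 94.9 and 113 CPM and 193, 161 and 151 CPM (log2 fold change 0.49 ± 0.15, edgeR adjusted p = 0.180). Muscle fibre markers, which define the tissue, were abundant. Of 10 tested, 0 were called and 2 did not overlap between the groups, with a median of 0.01 and a range of -0.23 to 0.09. Ckm, the muscle creatine kinase, had 33285 to 34492 CPM under IgG and 32694 to 34138 CPM under anti-IFNγ. Acta1, the most abundant of them, had 68805 to 69269 CPM and 57294 to 68319 CPM (log2 fold change -0.11 ± 0.06, edgeR adjusted p = 0.630). None of the markers of endothelial cells (13 tested), pericytes (7), satellite cells (4), tendon (6), adipocytes (7), red blood cells (5), nerve (6), Tregs (4), dendritic cells (2), B cells (1) or neutrophils (1) was called.

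The rises formed a different kind of set. None of the 74 was a member of any of the 41 lists, which were chosen with earlier results of these data known, and no theme was tested for them. Adssl1, the muscle enzyme of the purine nucleotide cycle, had 214, 227 and 578 CPM under IgG and 1308, 1008 and 1016 CPM under anti-IFNγ, a 3.27-fold rise (log2 fold change 1.71 ± 0.28, edgeR adjusted p = 0.00433). Rnf187, a ubiquitin ligase, had 18.5, 14.5 and 31.3 CPM and 108, 67.3 and 67.1 CPM (log2 fold change 1.91 ± 0.24, edgeR adjusted p = 0.000467). Rps2, a protein of the small ribosomal subunit, had 28.4, 29.1 and 127 CPM and 268, 188 and 186 CPM (log2 fold change 1.80 ± 0.40, edgeR adjusted p = 0.0440). In all 3 genes IgG replicate 3 lay between the other IgG libraries and the anti-IFNγ group. That order held for 67 of the 74 rises, while the mirror order held for 10 of the 84 falls.

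Eif3f, a subunit of the translation initiation factor eIF3, showed the same order, with 35.8, 29.1 and 112 CPM under IgG and 210, 163 and 164 CPM under anti-IFNγ (log2 fold change 1.60 ± 0.34, edgeR adjusted p = 0.0321). Lsm4, a component of the spliceosomal U6 particle, had 6.67, 10.3 and 19.5 CPM and 44.5, 42.4 and 38.8 CPM (log2 fold change 1.79 ± 0.26, edgeR adjusted p = 0.00196). Cers1, a ceramide synthase of muscle and brain, had 4.08, 4.82 and 6.56 CPM and 12.1, 16.6 and 19.3 CPM (log2 fold change 1.63 ± 0.27, edgeR adjusted p = 0.00473). The groups were disjoint in each. Mpped2 had the largest rise (log2 fold change 2.53 ± 0.53) from low counts, 0.185, 0.877 and 1.74 CPM against 6.55, 4.07 and 5.76 CPM. The other named rises were Fam174a (1.86), Podxl2 (1.69), Kcna7, a potassium channel (1.59), Camk1, a calcium-dependent kinase (1.58), and Tusc2 (1.56).

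The rises depended on single libraries more than the falls. Their number was 274 without IgG replicate 3, 35 without IgG replicate 1, 17 without IgG replicate 2, and 24, 18 and 35 without anti-IFNγ replicates 1, 2 and 3. Of the 12 named rises, 5 (Adssl1, Rnf187, Lsm4, Cers1 and Camk1) stayed called without any one library, although Lsm4 had an adjusted p of 0.0563 with the training libraries in the fit. The highest adjusted p of the others was 0.0692 for Fam174a, 0.102 for Podxl2, 0.125 for Tusc2, 0.145 for Mpped2 and Eif3f, 0.165 for Kcna7 and 0.197 for Rps2. Of the 48 named falls, 38 stayed called in all 6 such fits. DESeq2 gave adjusted p values of 0.0580 for Adssl1, 0.127 for Fam174a, 0.0975 for Podxl2, 0.279 for Eif3f and 0.344 for Rps2. Rps2 has many processed copies in the genome, so its count depends on how multi-mapping reads were treated. The rising genes had a median GC content of 52.3% and a median transcript length of 2632 bases, against 49.6% and 3426 bases for all tested genes and 49.5% and 2881 bases for the falls. With a smooth trend on length and GC removed from each library, 67 of the 74 rises and 80 of the 84 falls were still called.

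**Figure D3:**
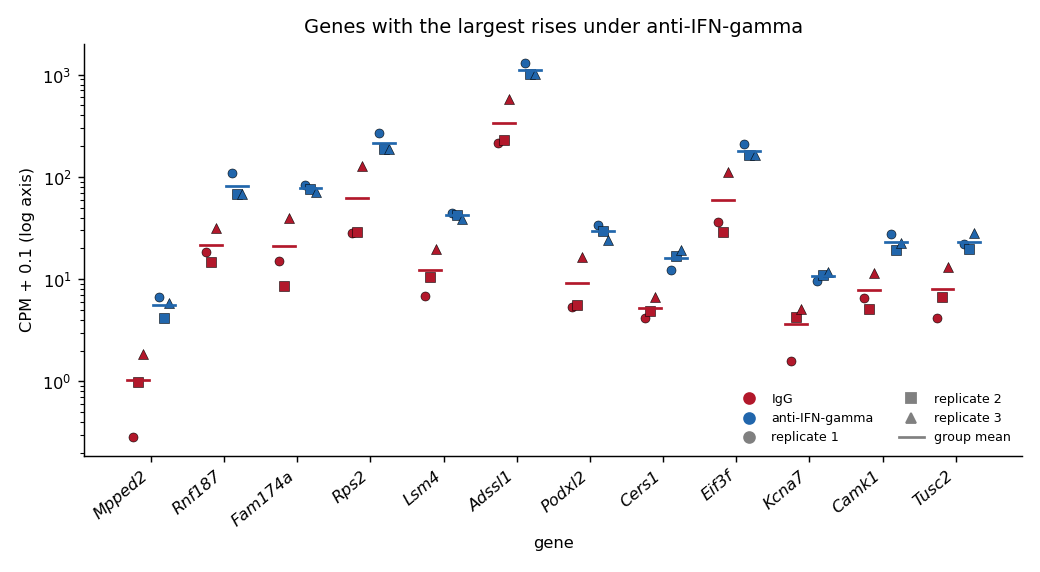
The 12 called genes with the largest rises, chosen and drawn like the plot of the largest falls (CPM plus 0.1, log axis, red IgG, blue anti-IFNγ, shape for replicate, bar for the mean). The red triangle, IgG replicate 3, is the highest red point in each gene and lies below the blue points, as in Adssl1 at 578 CPM against 1008 to 1308 CPM.

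The called genes were next set beside the training experiment, which shares no library with the antibody comparison and in which trained Foxp3DTR+ mice were compared with trained Foxp3DTR- mice, both without antibody. That comparison called 112 of 12579 genes (0.890%), of which 78 were higher (0.620%) and 34 lower (0.270%) after Treg depletion. Of the 84 genes lowered by anti-IFNγ, 80 were higher after Treg depletion, with a median log2 fold change of 1.96, and 62 were called higher. These 62 were 73.8% of the antibody's falls and 79.5% of the genes called higher by depletion. Of the 74 genes raised by anti-IFNγ, 70 were lower after depletion, with a median of -1.12, and 19 were called lower. Over all 11654 genes tested in both comparisons, 55.9% had opposite directions.

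**Figure D4:**
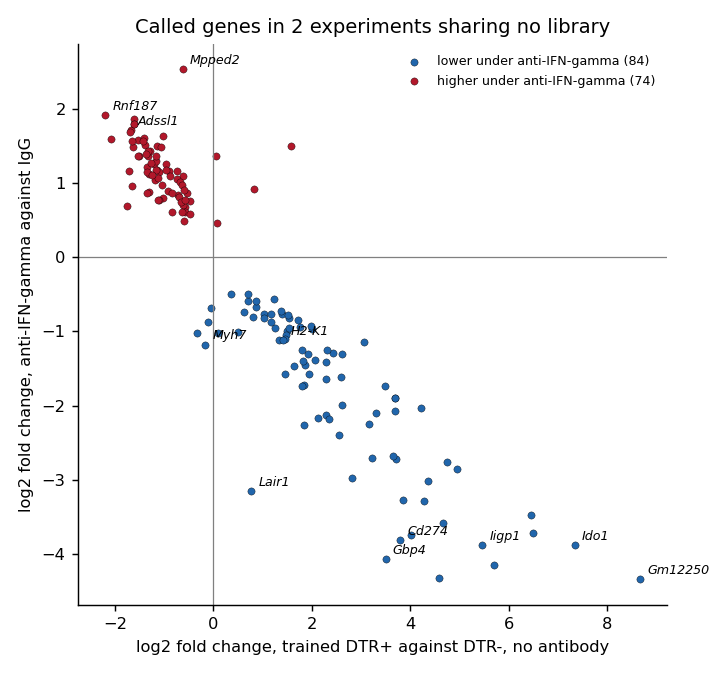
The 158 called genes by their log2 fold change in trained Foxp3DTR+ against Foxp3DTR- mice without antibody (horizontal axis) and under anti-IFNγ against IgG (vertical axis), blue for falls and red for rises. Most blue points lie at the lower right (80 of 84) and most red points at the upper left (70 of 74), with Myh7 among the blue points left of 0.

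The levels themselves place the antibody groups beside the training groups, with the caution that the experiments were separate. Gbp4 had 123, 221 and 104 CPM in trained Foxp3DTR+ mice without antibody and 15.6, 12.2 and 13.6 CPM in trained Foxp3DTR- mice. The IgG libraries (104 to 162 CPM) lay in the range of the former and the anti-IFNγ libraries (6.55 to 9.32 CPM) below the latter. Cd274 had 53.7, 132 and 44.0 CPM and 5.13, 6.28 and 5.89 CPM, so its anti-IFNγ values of 3.39 to 4.03 CPM were also below those of mice with Tregs. Iigp1 had 347, 952 and 279 CPM in trained Foxp3DTR+ mice without antibody, and its IgG values of 102 to 228 CPM were lower than in all 3 of them. Over the 84 falls, the mean under anti-IFNγ lay within the range of the 3 trained Foxp3DTR- libraries in 42 genes, above it in 30 and below it in 12. The mean under IgG was within that range in 0 of the 84, and it was below the mean of the trained Foxp3DTR+ mice without antibody in 66.

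For the rises, the mean under anti-IFNγ lay within the range of trained Foxp3DTR- mice in 55 of 74 genes, below it in 14 and above it in 5. Adssl1 had 1887, 1418 and 783 CPM in trained Foxp3DTR- mice and 289, 216 and 730 CPM in trained Foxp3DTR+ mice without antibody. In sedentary mice it had 1764, 2219 and 1935 CPM with the Foxp3DTR+ genotype and 1243, 1274 and 1480 CPM with Foxp3DTR-. Among the groups of these 2 experiments, the lowest values were thus those of trained Foxp3DTR+ mice, under IgG or without antibody. They were spread over a wide range in both experiments, and the highest, 730 CPM, was close to the 783 CPM of a Foxp3DTR- library. Aged mice had 1854 and 777 CPM under IgG and 424 and 1031 CPM under anti-IFNγ. Rnf187 had 193, 129 and 41.4 CPM in trained Foxp3DTR- and 18.5, 18.5 and 38.6 CPM in trained Foxp3DTR+ mice. For both genes the replicate 3 libraries of the genotypes lay close together. Myh7 did not follow the pattern: it had 286, 166 and 166 CPM in trained Foxp3DTR- and 151, 219 and 154 CPM in trained Foxp3DTR+ mice (log2 fold change -0.17, edgeR adjusted p = 0.992).

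The same antibody in aged mice gave no called gene. The aged libraries, 2 per group, were fitted together with the 6 trained antibody libraries, so the estimate of the spread draws on both experiments. In that fit, 0 of 13231 genes passed the edgeR test in aged mice (1024 had an unadjusted p under 0.05). Of the 84 falls in trained mice, 63 were lower in aged mice as well, with a median log2 fold change of -0.41, while 43.2% of all genes tested in both were lower there. Gbp4, Iigp1 and Tap1 had log2 fold changes of -2.51, -2.37 and -1.50 in aged mice, and Gbp2 and Cd274 of -0.17 and -0.36. The SE was 0.63 for Gbp4, 0.49 for Gbp2 and 1.06 for Cd274, and libraries of one group could lie far apart. Aged mice had 12.7 and 0.193 CPM of Cd274 under IgG and 1.56 and 7.12 CPM under anti-IFNγ. Whether these genes differed from each other in their response in aged mice was not tested. The difference of each from its response in trained mice was part of the test given below. Of the 74 rises, 23 were higher in aged mice, with a median of -0.29. The difference between the responses was tested as an interaction and was called for 0 genes by edgeR (0% of 13231, 729 at an unadjusted p under 0.05) and for 14 by DESeq2. The 6 genes with the smallest p were Wscd1 (edgeR adjusted p = 0.311) and Caprin2, Tor4a, Wdr25, Zfp334 and Cacna2d4 (0.629 each). Gbp2, with a larger p, had the same adjusted p of 0.629, and its difference between the responses was -3.10 ± 0.65 on the log2 scale. That count was 2454 without aged anti-IFNγ replicate 1, in which mitochondrially encoded genes took 14.0% of the counts, and 34 without aged anti-IFNγ replicate 3. Age, training, genotype and possibly the muscle differ together between these experiments and cannot be told apart.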

How the data were processed

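Polyadenylated RNA of whole muscle was sequenced. The deposited counts (55011 genes, 61 libraries) came from featureCounts after STAR 2.7.3a on mm10, per the submitters' processing notes, run by the authors. Not given in the sources used here: annotation, strand setting and treatment of multi-mapping reads. From these counts, edgeR 4.0.16 (R 4.3.3) was run with TMM scaling and filterByExpr (minimum count 10, minimum total 15). Its test was the two-sided quasi-likelihood F test with Benjamini-Hochberg adjustment. Fits were made on the 6 antibody libraries, on the 12 training libraries, and on the 6 antibody with 4 aged libraries. The last of these fits gave both the interaction and the antibody effect in aged mice. CPM values were computed on library totals. Totals were 4562680 to 6388765 counts in the antibody libraries, so intervals of low genes are wide, and floors cover counting error only. DESeq2 1.42.0, other scalings and filters, a replicate block, removal of length and GC trends, and leaving out each library were tried. The edgeR step was tested on simulated counts.

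Named genes were, in the antibody comparison, the 12 largest rises and falls at 5 CPM or more with an established symbol, the 3 smallest p and up to 8 called members of each of 25 pathway lists, the 2 most abundant and any called of each of 16 marker lists, and 6 genes of the interaction. Members and lists were chosen with earlier results of these data known. Gene positions are from GENCODE, promoters from RefSeq. No group other than those named was analysed here. 1 called gene of the signalling list is not reported here.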

Additional observations from a re-analysis of the deposited data

How the results depend on the processing

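None of the 158 called genes reversed its direction under these alternatives of the antibody comparison; genes with a fold change near 0, such as Ppargc1a, did change sign when 1 library was left out. The antibody comparison called 158 genes (74 higher, 84 lower). Without a filter on low counts it called 375 (236 higher, 139 lower), and with the training libraries in the fit 57 (16 higher, 41 lower). DESeq2 called 189, a stricter filter 162, and RLE scaling or removal of mitochondrial counts left 158. Leaving out each library gave 73 to 382 genes in all, 17 to 274 higher and 54 to 108 lower. The replicate numbers do not pair the libraries: same-numbered IgG and anti-IFNγ libraries had deviations correlated at -0.0351, 0.0129 and -0.0466, and the fit with the replicate number as a block called 113 genes, 47 higher and 66 lower. Of the 60 named called genes, 36 stayed called under all 14 alternatives (33 of 48 falls and 3 of 12 rises). With the training libraries in the fit 21 of the 60 lost the call, with DESeq2 7. The count of falls in the interferon lists, 51 of 99 tested, ranged from 34 with the training libraries in the fit to 58 without a filter. The difference from aged mice was called for 0 genes, 14 by DESeq2 and 10 without a filter, and for 0 to 2454 when 1 library was left out. The difference in mitochondrial share ranged from -0.604 to -0.151 percentage points when 1 library was left out. The cause of these changes was not tested. With 4562680 to 6388765 counts per library, a gene at 1 CPM rests on under 10 counts.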

Other observations

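Several rising genes encode mitochondrial proteins outside the lists used above, and they were picked after their values were seen. Timm29, of the import machinery of the inner membrane, had 12.4, 20.2 and 21.4 CPM under IgG and 56.1, 45.9 and 48.8 CPM under anti-IFNγ (log2 fold change 1.49 ± 0.18, edgeR adjusted p = 0.000381). Lars2, the mitochondrial leucyl-tRNA synthetase, had 278, 279 and 328 CPM and 409, 461 and 478 CPM (log2 fold change 0.61 ± 0.10, edgeR adjusted p = 0.00502). Micu2, a gatekeeper of the calcium uniporter, had 13.9, 10.5 and 19.9 CPM and 30.2, 29.4 and 27.4 CPM (log2 fold change 0.97 ± 0.20, edgeR adjusted p = 0.0288). In each the groups were disjoint and IgG replicate 3 was the highest IgG library. After Treg depletion in trained mice without antibody their log2 fold changes were -1.63, -0.58 and -1.05, of which that of Timm29 was called (edgeR adjusted p = 0.00198).

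Adipor1, a receptor of adiponectin, rose from 119, 117 and 171 CPM to 260, 219 and 230 CPM (log2 fold change 0.80 ± 0.14, edgeR adjusted p = 0.00632), and its log2 fold change after Treg depletion was -1.02 (edgeR adjusted p = 0.0198). Lair1, an inhibitory receptor of leukocytes, fell from 5.19, 3.29 and 5.21 CPM to 0.504, 0 and 1.02 CPM (log2 fold change -3.15 ± 0.64, edgeR adjusted p = 0.0230). Its anti-IFNγ values of 0.504 and 0 CPM were at or below the limit of detection, so the size of its fall is poorly fixed. After Treg depletion its log2 fold change was 0.77 (edgeR adjusted p = 0.935).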
